A study of Malus x robusta with 27 samples.

Results

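The 2OG-Fe(II) oxygenase genes expressed in crabapple flowers were chosen by their annotated domains and their measured FPKM, which counts fragments per length of exon and per depth of the library. A member lists the catalytic domain PF03171 and not the methyltransferase domain PF00891, and reached an FPKM of 1 or more in 3 or more of the 27 libraries. Of 48445 genes in the table, 201 met the domain part of the rule and 120 of these met the expression part. The other 81 fell short of the threshold, 21 of them with no fragment in any library. The measured FPKM thus chose the members, but no difference between groups did. The samples were whole flowers of Malus robusta, an ornamental crabapple: a progeny tree with strongly fragrant flowers (SF), a progeny tree with weakly fragrant flowers (WF), and the standard parent (Mr). SF and WF are each 1 selected tree. Flowers were taken at the small balloon stage (EB), the early flowering stage (ES) and the late flowering stage (LS), with 3 libraries for each of the 9 groups. The labels name no treatment. By the methods of the study, cut flowering branches were held in water in a growth chamber. Whether the flowers for RNA were taken before this is not stated. Libraries are written as material, stage and number (SF_LS_1).

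Enzymes of this family hold an iron ion in a pocket of histidine and aspartate residues and insert oxygen into, or desaturate, small molecules, most of them with 2-oxoglutarate as a partner that is turned into succinate. In plants the PF03171 domain is usually preceded by the N-terminal domain PF14226. Well-known enzymes with both domains carry out steps of flavonol and anthocyanin synthesis, make and inactivate gibberellins, inactivate salicylic acid and auxin, and, as ACC oxidase, release ethylene during flower ageing. The table pairs no member with a gene name, so which of these reactions each member carries out was not analysed here and members are given by their identifier.

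The libraries held 16146228 to 29558381 fragments (median 19419905), so that 3 fragments on a gene of 1 kb stood for an FPKM of 0.095 to 0.193. Whole flowers hold several organs, and fewer cells of a type cannot be told apart from less RNA per cell. Of 60 genes with the K-box domain of floral MADS-box regulators, 48 passed the expression threshold. Summed FPKM of 35 genes of the pollen family Ole e I was lower at LS than at EB in every material, with 1385 to 2260 in SF, 1335 to 2041 in WF and 2243 to 2965 in Mr at LS, against 7614 to 8871 in SF, 9205 to 9993 in WF and 5698 to 5914 in Mr at EB. Summed FPKM of 42 chlorophyll-binding genes was higher in Mr at every stage (7592 to 15540) than in SF (4421 to 8201) or WF (3704 to 5875). Between SF and WF, the pollen sums did not overlap at EB. The chlorophyll-binding sums did not overlap at LS, with 6518 to 8201 in SF and 3704 to 5875 in WF. At the other stages each list overlapped between SF and WF. These lists thus moved with the contrasts of stage, of SF with Mr and, at EB and LS, of SF with WF below. Their part in these contrasts was not tested. In 2 libraries, transcripts of the other materials were present at a level seen in no other library. In SF_LS_1, 86 genes otherwise near 0 in SF had a median of 7.86% of their FPKM in WF at LS, and in Mr_LS_2 149 genes otherwise near 0 in Mr had 16.67%. The medians in the other 25 libraries were 0.69% or lower. Counts of members called in single comparisons at LS are also given without them, as are some results of named members. Other results at LS are given only with them.

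Levels spanned more than 3 orders of magnitude. Mean FPKM over the 27 libraries ran from 0.279 to 656 with a median of 7.87, against a median of 9.45 over all 29660 genes that passed the same threshold. Means exceeded 100 in 11 members and were under 1 in 17. In all 27 libraries 58 members had an FPKM of at least 1, 33 reached it in fewer than 14, and 22 had no fragment in at least 1 library. Summed member FPKM was concentrated in few genes, with 42.7% in the 5 most abundant members and 66.7% in the 12 most abundant. Most members had both domains (92), 16 were annotated with PF03171 alone, and 12 carried other domains besides. The median coding length was 1080 bp (468 to 6075), and 6 members were newly assembled genes. Members lay on all 17 chromosomes, with 14 on chromosome 10 and 13 on chromosome 5. Just inside the threshold, by the FPKM of the library ranked 3 from the top, were HF35872 (1.018), a newly assembled gene on chromosome 5 (1.023) and HF14902 (1.024). Just outside were HF17778 (0.963), HF32723 (0.861) and HF12758 (0.852).

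The members varied more across groups than most expressed genes. The median range of the 9 group means was 2.14 on the log2(FPKM + 1) scale, against 1.13 over all genes that passed. In 14 members (11.7%) more than 50% of the summed group means came from a single group, against 1.67% of all genes. WF had the highest group mean for 57 members (47.5%, against 33.7% of all genes), Mr for 38 (31.67%, against 37.43%) and SF for 25 (20.83%, against 28.82%). LS was the stage of the highest mean for 59 members (49.2%, against 40.8% of all genes). It was EB for 32 (26.67%, against 35.65%) and ES for 29 (24.17%, against 23.57%). WF at LS alone was highest for 30 members, or 25.0%, against 17.0% of all genes. These shares describe the members and were not tested.

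**Figure D1:**
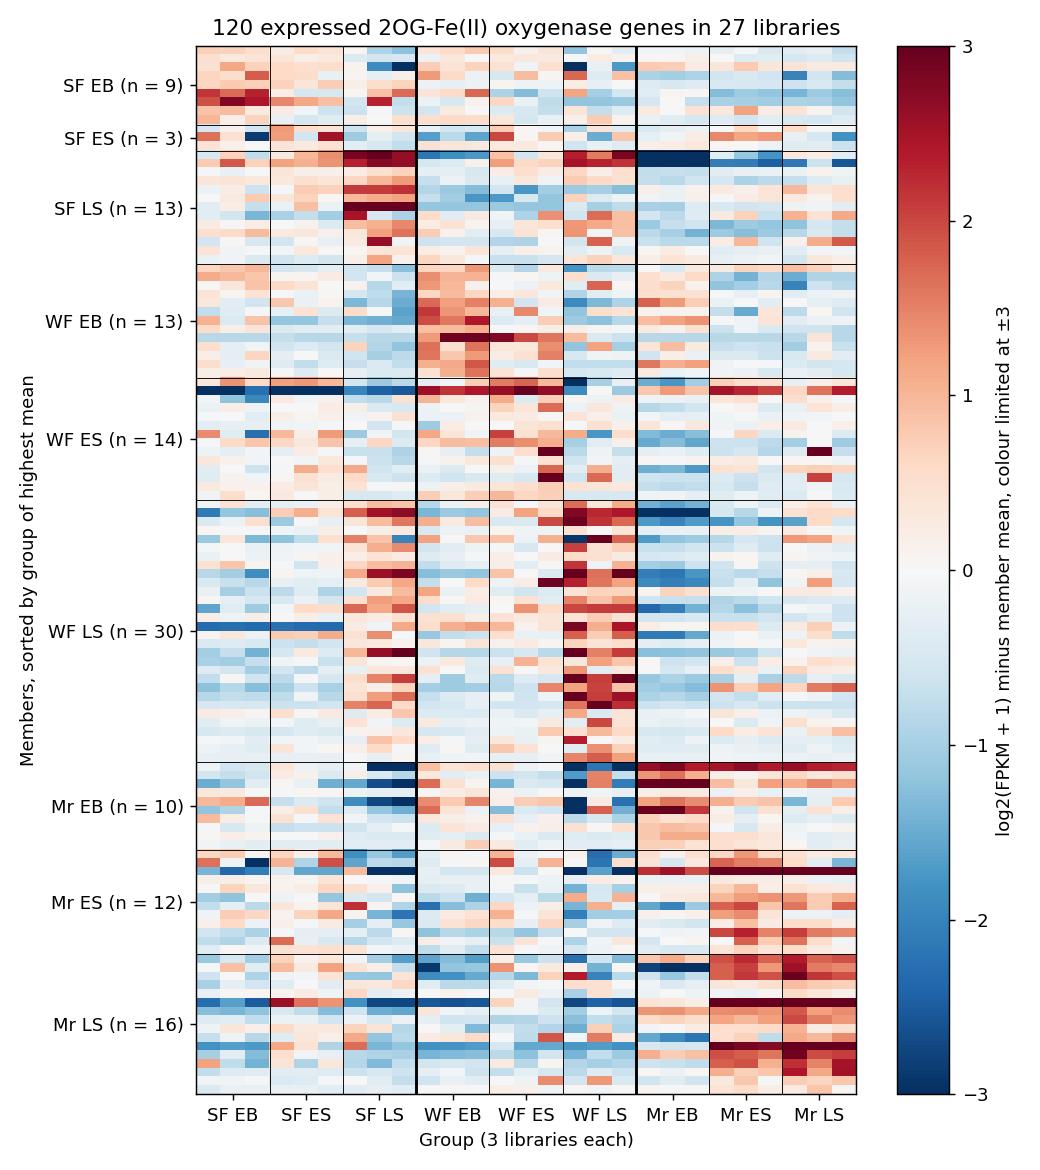
Each row is 1 of the 120 members and each column 1 of the 27 libraries, with colour for log2(FPKM + 1) minus the mean of the member over all libraries. Rows are sorted by the group with the highest mean, and the block of WF at LS is the tallest with 30 members.

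HF33774, at chr9:8541116-8542607 of the apple HFTH1 genome, had the highest mean FPKM over the 27 libraries. Its FPKM was 1002, 996 and 877 in SF, 799, 918 and 1064 in WF and 582, 579 and 552 in Mr at EB, and it was 636, 324 and 259 in SF, 269.6, 630.4 and 490.4 in WF and 492, 517 and 369 in Mr at LS. The SF libraries lay above all Mr libraries at EB and ES, and the groups overlapped at LS. HF08752 on chromosome 6, ranked 2, ranged from 75.9 to 542 in SF, from 55.4 to 557 in WF and from 303 to 678 in Mr. Its low values were all at LS, in all 3 SF libraries and 2 of the 3 WF libraries, while Mr stayed high. HF29318 on chromosome 17 was called in none of the comparisons made here. HF36409 on chromosome 12 and HF20057 on chromosome 14, also among the 12 most abundant, are gene models of 3690 and 2739 bp that add glycosyl hydrolase family 32 domains (PF00251 and PF08244) to those of an oxygenase, so that their FPKM covers the whole model. HF20057 was uneven among replicates, with 314, 88.3 and 2.46 in SF at EB.

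**Figure D2:**
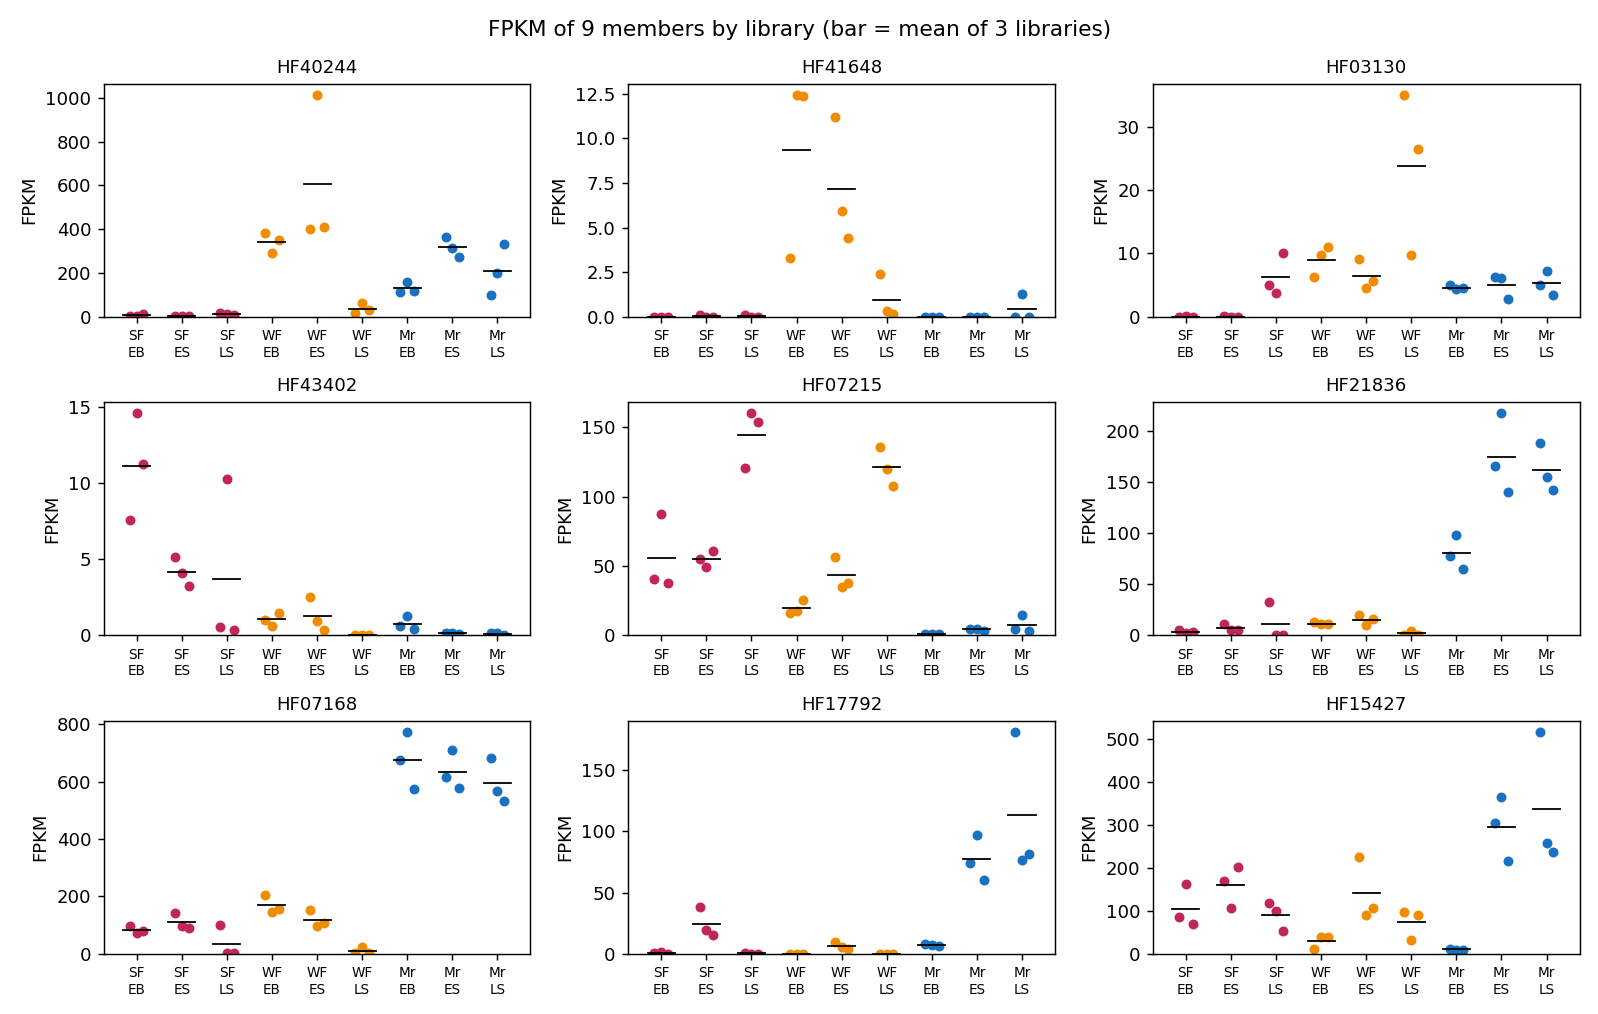
FPKM of 9 members in each of the 27 libraries, with points for libraries, bars for the means of 3 libraries and colours for SF, WF and Mr. HF40244 lay under 16 FPKM in all 9 SF libraries and HF41648 was above 2 FPKM only in WF libraries.

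SF was compared with WF at each stage to find members that differ between strongly and weakly fragrant flowers. At EB 8 members were higher in SF and 9 were lower, where 4.23% of all genes tested were called higher and 3.35% lower (called means an adjusted p under 0.05 in limma on log2(FPKM + 1), with any size of difference). At ES 1 member was higher and 5 were lower (backgrounds 4.43% and 3.71%), and scaling by total fragments gave 3 and 8. At LS 2 members were higher and 1 was lower (1.72% and 1.63%). The 1 lower at LS, HF36408, had passed the expression threshold through WF at LS alone, so that its call there came from the values that chose it. For 4 other calls counted below, the member would likewise have missed the threshold without the group in which it was higher. Before adjustment, 55 members (45.8%) were under the threshold at EB, against 25.2% of all genes, 35 (29.2%) at ES, against 22.2%, and 20 (16.7%) at LS, against 15%. One fit of all 9 groups called 27, 16 and 14 members at EB, ES and LS. Here and below, shares of all genes come from the unaltered fit of each comparison. They are not given for the alternatives, whose counts cannot be read against them. The number called moved with single libraries. Leaving out SF_EB_2 gave 6 at EB, and leaving out WF_EB_1, WF_EB_2 or WF_EB_3 gave 7, 3 or 8. For ES, 3 were called without SF_ES_1, and 11 were called when WF_ES_1 was dropped. For LS, 2 were called with SF_LS_1 left out. No member was called in the same direction at all 3 stages (1.19% of all genes were higher and 0.964% lower at every stage).

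HF40244, at chr3:7005096-7008012, had the largest fitted difference of all members between SF and WF at EB and ES, and was low in SF at every stage. At EB its FPKM was 3.88, 5.51 and 12.6 in SF, against 384, 293 and 352 in WF and 113, 158 and 118 in Mr. At ES it was 3.39, 4.71 and 2.89 in SF, against 400.1, 1014 and 411 in WF and 365, 316 and 272 in Mr. The SF values did not overlap with those of either other material at these stages. The log2 difference of SF to WF was -5.501 (SE 0.37, adjusted p = 0.00097 by limma) at EB and -6.904 (SE 0.39, adjusted p = 0.000433 by limma) at ES, and these calls held in all 11 alternatives run for each. At LS the FPKM was 15.5, 10.98 and 10.2 in SF, against 16.7, 64.03 and 29.1 in WF and 99.4, 199.7 and 333 in Mr. The WF values at LS lay above those of SF but near them, and the comparison was not called (log2 difference -1.32 (SE 0.48, adjusted p = 0.281 by limma)).

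HF03130, at chr3:32646128-32648036, was at or near 0 in SF at EB and ES. Its FPKM in SF was 0, 0.0554 and 0 at EB and 0.0771, 0 and 0 at ES, and it reached 5.05, 3.81 and 10.1 at LS. WF had 6.33, 9.73 and 11.03 at EB, 9.05, 4.51 and 5.63 for ES, and 35.02, 9.695 and 26.5 by LS. Mr had 4.94, 4.34 and 4.48 at EB and 5.07, 7.27 and 3.47 by LS. SF thus held more than 1 FPKM of it only at LS, WF and Mr at all stages. The 3 SF libraries at EB held 1 fragment of it together, against 781 in WF, a ratio of 531 (95% interval 95.1 to 21020, counting error only) in favour of WF. At ES 2 fragments in SF stood against 459 in WF. Its log2 difference was -3.27 (SE 0.21, adjusted p = 0.000855 by limma) at EB and -2.804 (SE 0.23, adjusted p = 0.001803 by limma) at ES, a scale on which low genes show less change than their ratio, and each call held in all 11 alternatives.

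HF41648, at chr14:22154127-22156232, was found almost only in WF. It had no fragment in 7 of the 9 SF libraries, and reached 0.09699 FPKM at most there, in SF_LS_1. Its FPKM in WF was 3.29, 12.4 and 12.4 at EB and 11.2, 5.95 and 4.399 at ES, with 2.41, 0.316 and 0.1399 for LS. It had no fragment in 8 of the 9 Mr libraries either. The exception was Mr_LS_2 with 1.302, a library with transcripts of the other materials, and where this value came from was not tested. With 780 fragments in WF at EB and none in SF, the gene was at least 177-fold lower in SF (floor of 3 fragments over the group). Its log2 difference was -3.196 (SE 0.46, adjusted p = 0.01301 by limma) at EB, where the adjusted p was 0.0615 without SF_EB_2 and 0.0565 without WF_EB_2, and -2.91 (SE 0.30, adjusted p = 0.00412 by limma) at ES.

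HF43402, at chr11:6156417-6158239, had the opposite pattern. Its FPKM at EB was 7.59, 14.6 and 11.3 in SF, against 1.03, 0.631 and 1.47 in WF and 0.604, 1.302 and 0.399 in Mr. The SF values lay above all others, with a log2 difference of 2.55 (SE 0.28, adjusted p = 0.00504 by limma) to WF and 2.77 (SE 0.29, adjusted p = 0.00121 by limma) to Mr. The same SF libraries enter both values. At ES the FPKM was 5.17, 4.11 and 3.24 in SF, against 2.501, 0.968 and 0.337 in WF and 0.167, 0.135 and 0.108 in Mr. WF was not called there (log2 difference 1.29, adjusted p = 0.1003 by limma), and Mr was (2.17). At LS only SF_LS_2 held it above 1 FPKM, with 10.3.

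At LS the 2 members called higher in SF than in WF both lay on chromosome 11. HF28138, at chr11:38284044-38293018, had 31.1, 63.9 and 77.1 FPKM in SF, against 0.665, 0.129 and 0.312 in WF and 1.003, 1.05 and 0.787 in Mr. HF28140, at chr11:38363744-38367360, had 40.6, 40.9 and 43.5 in SF, against 3.57, 3.88 and 3.02 in WF and 18.04, 11.6 and 12.9 in Mr. Both were higher in every SF library than in any WF or Mr library at LS. Their log2 differences to WF were 5.34 (SE 0.37, adjusted p = 0.00321 by limma) and 3.25 (SE 0.13, adjusted p = 0.00138 by limma), and 5.72 and 3.27 without SF_LS_1. With the replicate number as a block in the fit, neither was called, as given in the closing section. HF36408 on chromosome 12, a member only through WF at LS, had 0.135, 0 and 0.261 FPKM in SF and 2.24, 3.15 and 1.78 in WF.

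Other members differed from WF by less or at the edge of the threshold. A newly assembled gene on chromosome 2, at chr2:7761508-7786582, had 8.55, 9.48 and 9.12 FPKM in SF and 4.44, 4.18 and 4.44 in WF at EB, a small difference with little spread (log2 difference 0.91 (SE 0.12, adjusted p = 0.0105 by limma), with adjusted p = 0.0631 by limma without WF_EB_2). HF01902 and HF22770, higher in SF at EB, and HF26072, lower, kept their calls in 1, 3 and 6 of 11 alternatives (adjusted p up to 0.154, 0.275 and 0.114 by limma). At ES HF18492, higher in SF, and HF34374, lower, kept theirs in 4 of 11 each (adjusted p up to 0.142 and 0.323). HF26072, for example, had 1.11, 1.705 and 2.36 FPKM in SF and 14.3, 7.76 and 5.96 in WF at EB.

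SF was then compared with Mr, the parent, at each stage. At EB 36 members were higher in SF and 23 lower (30.0% and 19.2%), with 22.1% and 18.9% of all genes tested called. At ES 29 were higher and 30 lower (24.2% and 25.0%, against 18.8% and 16.8%), and at LS 25 were higher and 26 lower (20.8% and 21.7%, against 16.4% and 16.3%). At LS 39 were called without Mr_LS_2, 62 without SF_LS_1 and 54 without both. Of the 23 lower at EB, HF14114 had passed the expression threshold only through Mr at EB. A newly assembled gene on chromosome 5 had passed through Mr at EB and 1 library outside it, WF_EB_3. Without Mr at EB that gene would have missed the threshold. In the same direction at all 3 stages, 12 members were called higher in SF and 11 lower (10% and 9.17%, against 7.73% and 6.54% of all genes tested). These counts rest on fits that hold both mixed libraries. Without Mr_LS_2, HF07168 and HF21836 of the lower list were not called at LS (adjusted p = 0.0663 and 0.0658 by limma).

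**Figure D3:**
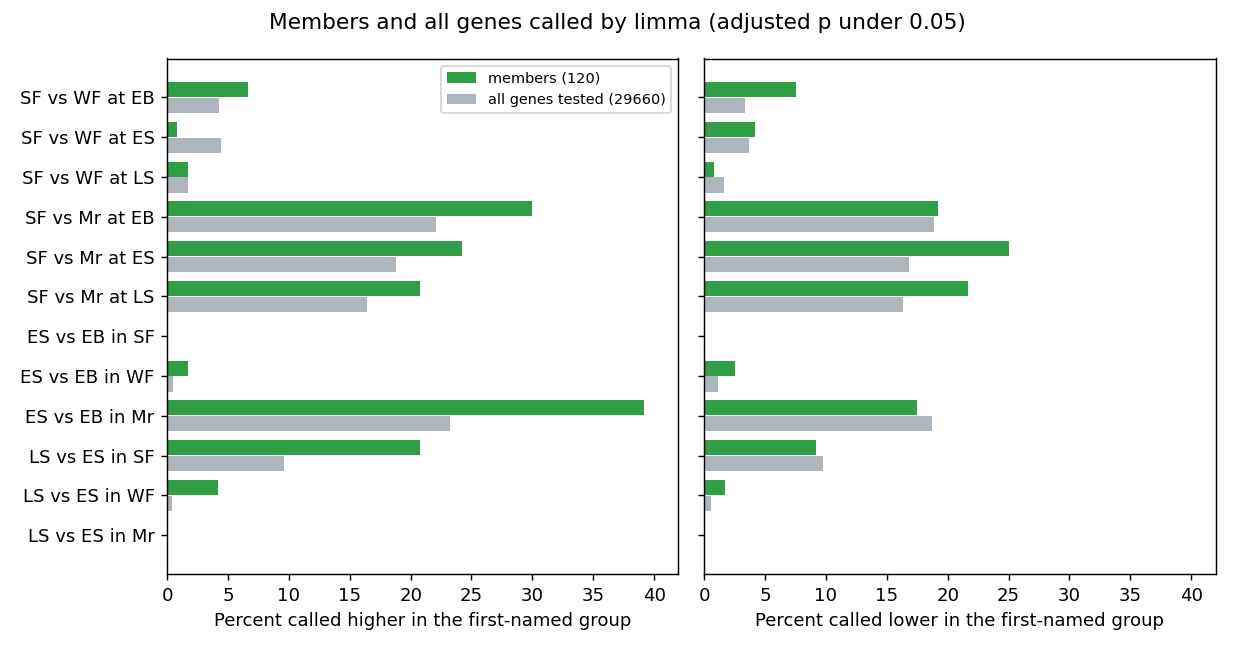
Bars give the percent of the 120 members and of the 29660 genes tested that were called higher (left) or lower (right) in the first-named group of each of the 12 comparisons. Members stood furthest above the background, in percentage points, among genes higher at ES than at EB in Mr (39.2% and 23.2%) and higher at LS than at ES in SF (20.8% and 9.58%). For LS against ES in SF, the bars stand for 25 members higher and 11 lower. Without the mixed library SF_LS_1 these were 31 and 29.

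Of the 12 members higher in SF than in Mr at every stage, HF07215 at chr8:19167458-19168708 differed most. At EB its FPKM was 40.8, 87.5 and 37.98 in SF, 15.97, 17.3 and 25.4 in WF and 0.692, 0.912 and 0.728 in Mr. At ES it was 54.7, 49.6 and 61.1 in SF, 56.5, 35.03 and 37.9 in WF and 4.73, 4.63 and 3.43 in Mr. At LS it was 120.4, 160.2 and 154 in SF, 136, 120.1 and 108 in WF and 4.45, 14.7 and 3.12 in Mr. All libraries of SF and WF lay above all those of Mr, where Mr_LS_2 was highest. The log2 difference of SF to Mr was 4.88 (SE 0.32, adjusted p = 0.0002798 by limma), 3.42 (SE 0.14, adjusted p = 6.26e-05 by limma) and 4.36 (SE 0.49, adjusted p = 0.00264 by limma) at EB, ES and LS, and it was 4.93 at LS without Mr_LS_2.

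HF40143 on chromosome 3 and HF12754 on chromosome 15 were also higher in SF at every stage. HF40143 had 35.4, 80.8 and 28.8 FPKM in SF and 5.07, 3.66 and 4.68 in Mr at EB. At LS it had 365, 571 and 312 in SF and 61.9, 57.9 and 39.2 in Mr, so that both materials held more of it in the open flower but SF stayed above Mr. Its call at ES was lost without Mr_ES_2 (adjusted p = 0.0503 by limma). HF12754 had 7.52, 15.7 and 14.3 in SF and 1.66, 2.25 and 2.796 in Mr at EB, and 128, 213 and 238 in SF and 49.6, 54.5 and 53.02 in Mr at LS. WF resembled SF in this gene, with 254, 175 and 199 at LS. The other 9 were HF18815, HF27392, HF17680, HF30614, HF18491, HF01267, HF01893, HF03073 and the newly assembled gene of chromosome 2 named above, with log2 differences between 0.44 (HF18815 at ES) and 2.13 (HF01893 at LS). HF03073 had 3.97, 4.08 and 3.48 FPKM in SF and 0.879, 0.673 and 0.897 in Mr at ES.

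Among the 11 members lower in SF than in Mr at every stage was HF07168, at chr8:19994113-19998640, ranked 4 by mean FPKM. At EB its FPKM was 98.02, 73.5 and 78 in SF, 204, 147 and 157 in WF and 675, 774 and 574 in Mr. At ES it was 142, 96.3 and 91.5 in SF, 152, 96.7 and 107 in WF and 615, 711 and 577 in Mr. At LS it was 101, 2.15 and 1.06 in SF, 1.295, 23.4 and 3.6 in WF and 681, 566 and 534 in Mr. Mr stayed high while WF and 2 of the 3 SF libraries were low at LS, and SF_LS_1 stood apart. The log2 difference of SF to Mr was -3.005 (SE 0.16, adjusted p = 0.0001402 by limma) at EB, -2.54 (SE 0.19, adjusted p = 0.000389 by limma) at ES and -6.09 (SE 1.42, adjusted p = 0.0217 by limma) at LS. At LS it was -7.86 without SF_LS_1 (adjusted p = 0.000347 by limma), and the call was lost when any 1 of the other 5 libraries was left out (adjusted p up to 0.0776 over the alternatives).

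HF21836, at chr8:10507252-10516264 on the same chromosome, had the same order of groups. Its FPKM at EB was 5.46, 2.34 and 3.08 in SF, against 77.96, 97.9 and 65.3 in Mr, and at ES 11.2, 4.81 and 4.798 in SF, against 166, 218 and 141 in Mr. At LS the SF libraries had 32.2, 0.222 and 0.209, with SF_LS_1 again apart, and those of Mr 188, 155 and 142. The log2 difference was -4.17 (SE 0.28, adjusted p = 0.000279 by limma) at EB, -4.54 (SE 0.33, adjusted p = 0.000327 by limma) at ES and -5.47 (SE 1.27, adjusted p = 0.0214 by limma) at LS. The last was -7.06 without SF_LS_1, -5.49 with an adjusted p of 0.0658 by limma without Mr_LS_2, and -7.08 without both. Leaving out SF_LS_2, SF_LS_3, Mr_LS_1 or Mr_LS_3 also ended it (adjusted p up to 0.0769).

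HF17792, at chr10:41643235-41646048, had its highest values in the open flower, and Mr alone held it at LS. At EB its FPKM was 0.365, 1.14 and 0.1696 in SF, 0.136, 0.0615 and 0.124 in WF and 7.76, 7.42 and 6.56 in Mr. At ES it was 38.1, 19.5 and 15.7 in SF, 9.58, 5.26 and 3.54 in WF and 74.5, 97.4 and 59.95 in Mr. At LS it was 0.878, 0 and 0 in SF, 0, 0.227 and 0.0938 in WF and 181, 76.5 and 81.8 in Mr. In SF and WF it stood well above the other stages only at ES. The log2 difference of SF to Mr was -6.42 (SE 0.41, adjusted p = 0.000878 by limma) at LS, -6.72 without SF_LS_1 and -6.94 without both mixed libraries.

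HF31029 on chromosome 15, HF03615 on chromosome 11 and HF40244 were further members lower in SF at every stage. HF31029, ranked 3 by mean FPKM, had 287, 195 and 223 in SF and 687, 840.4 and 605 in Mr at ES. HF03615 had 10.1, 0.358 and 0.563 in SF and 96.4, 51.7 and 35.05 in Mr at LS, a log2 difference of -4.31 (SE 0.85, adjusted p = 0.0129 by limma) that was -5.29 without SF_LS_1 and -4.37 without Mr_LS_2. The list was completed by HF01905, HF37388, HF15305, HF12234 and HF30053, with log2 differences between -3.204 (HF12234 at LS) and -0.47 (HF30053 at EB).

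HF08300 on chromosome 6 and HF39612 on chromosome 3 were highest in Mr at EB. HF08300 had 6.89, 8.75 and 16.4 FPKM in SF, 69.4, 29.6 and 22.2 in WF and 338, 437 and 209 in Mr at EB. HF39612 had 3.75, 4.71 and 9.31 in SF, 33.4, 13.1 and 8.49 in WF and 80.8, 86.2 and 45.4 in Mr. Mr lay above both other materials in each. The log2 difference of SF to Mr at EB was -4.84 (SE 0.38, adjusted p = 0.000487 by limma) for HF08300 and -3.403 (SE 0.37, adjusted p = 0.00143 by limma) for HF39612.

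At flower opening, ES was compared with EB in each material. In Mr 47 members rose and 21 fell (39.2% and 17.5%), where 23.2% of all genes tested rose and 18.7% fell. The 21 include HF14114. Scaling by total fragments moved the median change of all genes by -0.13 and gave 41 rises and 25 falls. In WF 2 members rose and 3 fell (backgrounds 0.516% and 1.13%), and the count was 1 without WF_ES_3 and 0 without any other 1 of the 6 libraries. In SF no member was called by limma, as for all genes (0% in each direction). Before adjustment 33 members (27.5%, against 18.2% of all genes) were under the threshold, and 6 were called without SF_EB_2. The study reports differentially expressed genes for this step in SF by DESeq2 at the same adjusted threshold. The 0% thus holds for the limma fit and does not mean that no gene changed. One fit of all 9 groups called 10 in SF. Summed FPKM of the pollen family at ES was 4397 to 7726 in SF, 5533 to 6779 in WF and 3867 to 5495 in Mr, and only in SF did this overlap with its values at EB given above.

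HF15427 on chromosome 4 rose most in Mr. Its FPKM in Mr was 305, 364 and 216 at ES, against 11.9, 9.93 and 9.95 at EB. In SF it was 169.6, 107 and 203 at ES and 84.6, 162 and 68.5 at EB, groups that overlap. The log2 change in Mr was 4.65 (SE 0.20, adjusted p = 0.000264 by limma). HF03615 followed with 33.7, 24.2 and 22.4 FPKM at ES, against 1.53, 1.38 and 1.43 at EB (log2 change 3.48 (SE 0.16, adjusted p = 0.000314 by limma)), and HF17792 with a log2 change of 3.22 (SE 0.18, adjusted p = 0.000444 by limma). HF08300 and HF39612 fell most, to 40.96, 26.8 and 51 FPKM at ES for HF08300 and 10.5, 6.04 and 13.7 FPKM for HF39612, with log2 changes of -3.002 (SE 0.35, adjusted p = 0.00237 by limma) and -2.704 (SE 0.36, adjusted p = 0.00366 by limma). HF19130 on chromosome 2 fell to 10.99, 7.55 and 11.5 FPKM at ES, against 30.7, 26.5 and 33.4 at EB. The calls of these 6 members in Mr held in all 11 alternatives.

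In WF the members called at opening were HF17792 and HF12754, which rose, and HF11876, HF19130 and HF11102, which fell. HF17792 reached 9.58, 5.26 and 3.54 FPKM at ES, against 0.136, 0.0615 and 0.124 at EB, a log2 change of 2.597 (SE 0.31, adjusted p = 0.0333 by limma) that left the threshold without any 1 of the 5 libraries other than WF_ES_3 (adjusted p up to 0.145 over the alternatives). In SF the same gene had a log2 change of 3.98, with an adjusted p of 0.0692 by limma. HF11102 on chromosome 5 held 2.304, 2.42 and 2.69 FPKM at ES and 5.12, 5.28 and 5.99 at EB, and HF11876 on the same chromosome 0.302, 0.215 and 0.576 FPKM at ES and 2.51, 2.72 and 5.12 at EB. Those 2, HF19130 and HF12754 lost their calls without any 1 of the 6 libraries.

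From ES to LS, 25 members rose and 11 fell in SF (20.8% and 9.17%, against 9.58% and 9.73% of all genes tested). The count moved with single libraries, for which the shares of all genes are not given. Without SF_LS_1, the mixed library, 60 members were called (31 higher, 29 lower), without SF_LS_3 11, without SF_ES_3 3, and without SF_ES_1 or SF_LS_2 0. In WF 5 members rose and 2 fell (backgrounds 0.394% and 0.57%), with 18 called without WF_LS_2, 2 without WF_ES_2 and 0 without any 1 of the other 4. In Mr none were called (0% of all genes in each direction), none without Mr_LS_2 and 2 without Mr_LS_1. Before adjustment 27 members, or 22.5%, against 15.2% of all genes, were under the threshold. For this step in Mr too, the study reports differentially expressed genes by DESeq2. Whether the step differs between materials was not tested. One fit of all 9 groups called 1 member in Mr and 48 in WF.

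HF28138 rose most in SF. Its FPKM was 31.1, 63.9 and 77.1 at LS, against 0.951, 3.2 and 0.934 at ES and 0.793, 1.59 and 0.376 at EB. The groups at LS and ES were far apart, with a log2 change of 4.44 (SE 0.46, adjusted p = 0.0117 by limma), 4.83 without SF_LS_1. HF28140 stood at 40.6, 40.9 and 43.5 FPKM at LS, against 8.56, 15.4 and 14.7 at ES. HF03130 rose on the log2 scale by 2.74 (SE 0.32, adjusted p = 0.0128 by limma), and HF28136, next to HF28138, by 2.47 (SE 0.59, adjusted p = 0.0399 by limma). Among called members without overlap, the largest falls in SF were those of HF17792, by a log2 change of -4.27 (SE 0.41, adjusted p = 0.0117 by limma), of HF08752, with -2.14, and of HF34374, with -2.04. HF34374 had 3.67, 1.61 and 0.909 FPKM at LS, against 9.68, 12.1 and 10.5 at ES and 33.2, 36.4 and 55.2 at EB. The calls of HF28138, HF03130, HF28136, HF17792, HF08752 and HF34374 held without SF_LS_1 and were lost without SF_ES_1 or SF_LS_2, with adjusted p up to 0.134 over the alternatives.

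Among members called in WF from ES to LS, HF28135 on chromosome 11 and HF01898 on chromosome 13 rose most. HF28135 had 31.6, 8.58 and 16.6 FPKM at LS, against 0.286, 0.731 and 0.594 at ES. HF01898 had 19.9, 7.39 and 10.8 at LS, against 0.8305, 0.305 and 0.795 at ES. Neither overlapped between the stages. HF36408 had 2.24, 3.15 and 1.78 FPKM at LS, against 0, 0 and 0.0963 at ES, in the group that made it a member. HF28136 and HF31818 had log2 changes of 3.28 and 3.24 and were not called. HF17792 fell to 0, 0.227 and 0.0938 FPKM, and HF32721 on chromosome 17 had no fragment in any WF library at LS, against 1.79, 1.15 and 1.29 FPKM at ES, at least 61.6-fold lower (floor of 3 fragments over the group). Adjusted p lay between 0.0288 and 0.0439 for HF28135, HF01898, HF17792 and HF32721 by limma. These 4 calls were lost without WF_ES_1, WF_ES_3, WF_LS_1 or WF_LS_3, and the highest adjusted p over the alternatives lay between 0.117 and 0.172.

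**Figure D4:**
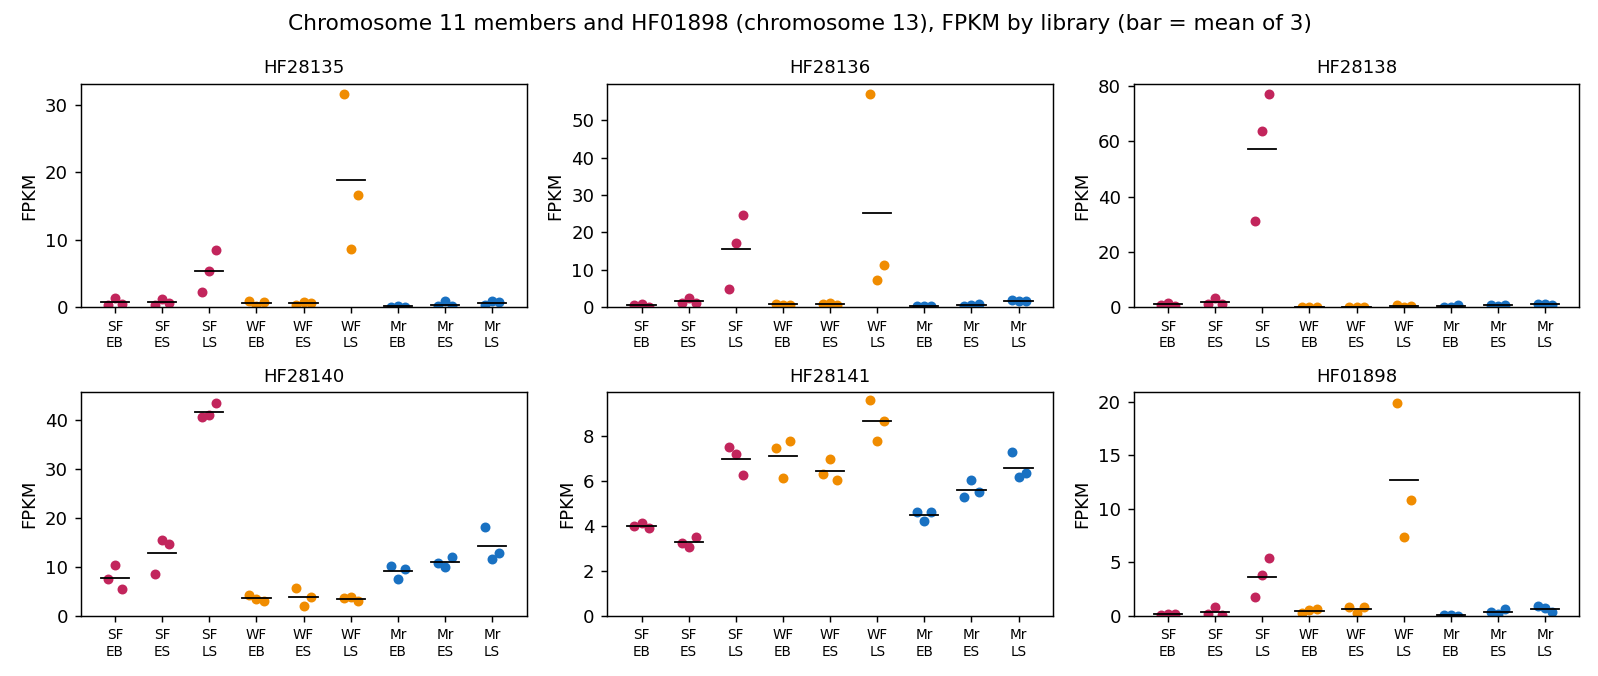
FPKM in each library of 5 members on chromosome 11 between 38192697 and 38392514, and of HF01898 on chromosome 13, with bars for the means of 3 libraries. HF28138 and HF28140 were highest in SF at LS, while HF28135, HF28136 and HF01898 were high at LS in both WF and SF.

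These genes of chromosome 11 lay within 200 kb and fell into different patterns. HF28135, HF28136, HF28138, HF28140 and HF28141 all encode both domains. HF28138 and HF28140 were high in SF at LS, as given above. HF28136, at chr11:38272809-38278824, had 4.77, 17.1 and 24.7 FPKM in SF, 56.99, 7.29 and 11.4 in WF and 1.89, 1.66 and 1.57 in Mr at LS. HF28135 had 2.27, 5.34 and 8.52 in SF, 31.6, 8.58 and 16.6 in WF and 0.301, 0.909 and 0.682 in Mr. In both, SF and WF lay above all Mr libraries. HF28141 had 3.26, 3.05 and 3.51 FPKM in SF and 6.32, 6.96 and 6.03 in WF at ES, and 7.49, 7.202 and 6.27 in SF and 9.61, 7.76 and 8.67 in WF at LS. Reads from near-identical copies could be shared between such genes, and how they were assigned is not given in the sources used here.

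Neighbouring members ranged from alike to opposed in pattern. With gaps of at most 50 kb, 33 members lay in 15 runs, of which 1 held more than a pair. The 24 pairs within runs had a median Pearson r of 0.126 over the 27 libraries, on log2(FPKM + 1). The median was 0.0185 over all 7140 pairs of members. Of the 24 pairs, 5 were above 0.5 and 11 were under 0, shares that were not computed over all pairs. The largest run held HF01893, HF01896, HF01898, HF01902 and HF01905 on chromosome 13 from 19426265 to 19582502, with r from -0.75 to 0.40 between its members. All pairs of this run, also those not side by side, are among the 24 and weigh on their median. In the runs of 2 members r went from -0.53 to 0.96. HF01893 was highest in SF at EB (14.4, 10.4 and 16.2 FPKM, against 3.55, 4.199 and 10.5 in WF and 1.8, 2.68 and 2.56 in Mr). HF01898 was highest in WF at LS. HF01905 was highest in Mr at LS (59.1, 38.3 and 43.8 FPKM). HF01896 was low throughout, from 0.0361 to 1.97.

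The pairs most alike over the 27 libraries were chosen after their values were seen. Some lay on the same chromosome and others joined different ones, and the share of each over all pairs was not computed. A pair of newly assembled neighbours on chromosome 10 had r = 0.961. HF28135 and HF28136 on chromosome 11 had 0.935, and HF37187 and HF37188 on chromosome 6 had 0.913. HF28135 and HF01898 reached 0.957, HF12234 and HF31029 0.955, HF39612 and HF08300 0.933, and HF17792 and HF31029 0.933. The 27 points of each pair share materials, stages and libraries, so r describes the pattern across groups and has no p.

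The change at opening was compared directly between SF and Mr and between SF and WF. Against Mr, 22 members differed: in 17 the change in SF was more negative and in 5 more positive (14.2% and 4.17%, against 5.92% and 3.31% of all genes tested). Scaling by total fragments moved the median of all genes by 0.15 and gave 13 and 8. One fit of all 9 groups called 4. The count was 13 without SF_ES_1, 14 without SF_ES_2, 11 without Mr_EB_1, 12 without Mr_EB_2, and 13 without Mr_ES_1 or Mr_ES_2, and HF15305, HF15427 and HF23961 were called in all 17 alternatives. Against WF no member differed (0% of all genes in each direction, with 13 members, or 10.8%, against 7.36% of all genes, under the threshold before adjustment). HF15427 differed most between SF and Mr, by -3.995 (SE 0.46, adjusted p = 0.00228 by limma). HF08300 went the other way, by 3.45 (SE 0.63, adjusted p = 0.0122 by limma). It fell in Mr and had a log2 change of 0.45 in SF.

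**Figure D5:**
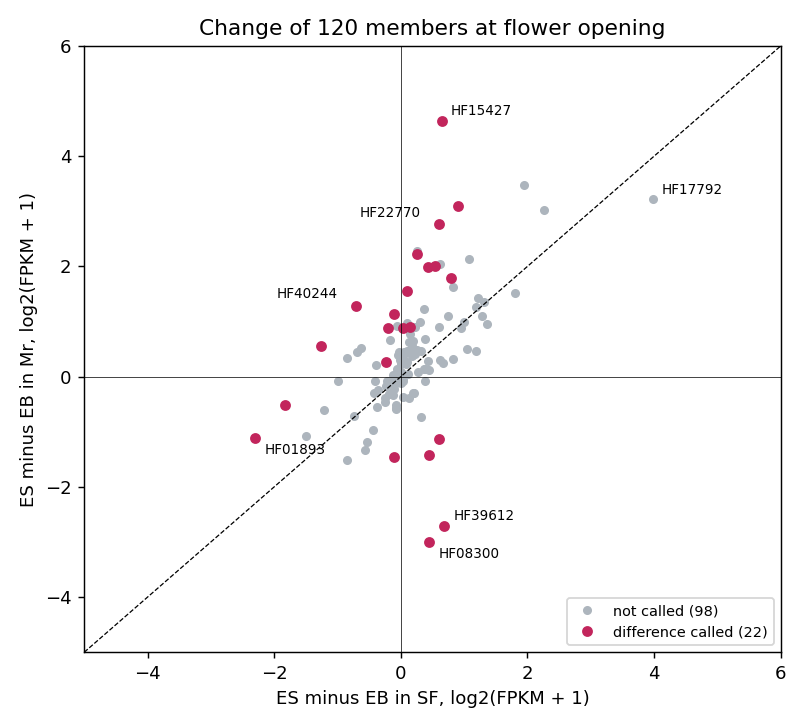
Each point is 1 of the 120 members, with the change from EB to ES in SF on the horizontal axis and in Mr on the vertical axis, both on the log2(FPKM + 1) scale, and the dashed line for equal changes. The 22 members in colour differed between the materials, and most of them lie above the line, where the change in Mr was more positive.

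Some members stood out in single libraries. HF13624, at chr15:359876-361379, had 94.3 FPKM in WF_ES_3 and 24.7 in Mr_LS_2, against 2.04 at most in the other 25 libraries. HF31818 on chromosome 5 had 3.38, 4.25 and 1.34 FPKM in SF and 3.78, 28.4 and 6.26 in WF at LS, and no fragment in Mr at LS. At EB and ES it stayed under 0.4 in all materials.

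Genes near the members in function were given by their counts. Of 24 expressed genes with another oxygenase domain of the superfamily, 2, 1 and 1 were higher and 0, 1 and 0 lower in SF than in WF at EB, ES and LS, and 6, 4 and 5 were higher and 5, 4 and 6 lower in SF than in Mr. Of 6 chalcone synthases, the entry enzyme of flavonoid synthesis, 1 was higher and 4 were lower in SF than in Mr at EB, and 2 were higher and 4 lower at ES and at LS. Of 9 genes with a chalcone isomerase domain, named for the next enzyme of that pathway, 1, 0 and 1 were higher in SF than in Mr at EB, ES and LS. Lower in SF were 6, 4 and 4. Both lists follow annotated domains, and which reaction each gene carries out was not analysed. Against WF, 1 of the 6 with a chalcone synthase domain was called, higher at ES. Of the 9 with a chalcone isomerase domain, 1 was higher at EB and 1 at ES. The shares of all genes called in these comparisons are those given above. The 1 expressed gene with both PF03171 and PF00891 was higher in SF than in Mr at ES and fell from ES to LS in SF.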

How the data were processed

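FPKM per gene for 27 flower libraries were deposited by the authors in 1 table. Per the labels and the methods of the study, libraries were sequenced as paired reads of 150 bp and mapped to the apple HFTH1 genome. The processing notes of the submitters name StringTie 1.3.3b and DESeq2 1.16.1. For the aligner and the counter, the sources used here give no name. Fragments were recovered from the FPKM and the gene lengths, and 100% of 771147 values under 1000 fragments were whole within 0.05. The deposited FPKM carried a scaling by size factors. The depth behind the FPKM, divided by the median-of-ratios size factor of the library, was 1.98e+07 in all 27 libraries. Groups followed the labels. The labels do not say that replicates are separate trees, so p-values measure the spread between libraries only. Each comparison was fitted by limma 3.58.1 (R 4.3.3) on log2(FPKM + 1) of its 6 libraries, with an intensity trend and Benjamini-Hochberg adjustment over 29660 genes. Fold changes on this scale understate the change of low genes. The fits of 1 group against another were tried on simulated data in which only well-expressed genes changed. That simulation covered neither changes in low genes nor the difference of changes between materials. Alternatives were a pseudocount of 0.1, no filter, scaling by total fragments, one fit of all 9 groups, a replicate block, each library left out, and both mixed libraries left out. Pfam families gave marker lists (K-box, Ole e I, chlorophyll-binding) and related lists (other oxygenase domains, PF03171 with PF00891, chalcone synthases and isomerases). Named members were the 12 of highest mean, up to 4 rises and 4 falls per comparison of materials and 3 per comparison of stages among called members whose groups did not overlap, those called at all 3 stages, the 6 most concentrated in 1 group, runs of at least 3, HF40244 and those at the threshold; others are said to have been chosen later or complete a count. The members and lists were chosen with earlier results of these data known. Python 3.11.15 and matplotlib 3.10.9 drew the figures.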

Additional observations from a re-analysis of the deposited data

Results flagged for a closer look

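For 12 named members the change from EB to ES differed between SF and Mr by the interaction test in limma (adjusted p between 0.00228 and 0.0413), a difference between groups under the same step. One fit of all 9 groups called 4 of the 22 members that differed, and of the 12 only HF15305 and HF15427 were called in all 17 alternatives. The change in SF minus that in Mr, on the log2(FPKM + 1) scale, was -3.995 for HF15427, -2.17 for HF22770, -2.003 for HF40244, -1.57 for HF36409, -1.48 for HF15305, -1.47 for HF07215, -1.31 for HF34374, -1.24 for HF07937, -1.20 for HF01893 and -0.76 for HF30053. It was 3.45 for HF08300 and 3.39 for HF39612. In 8 of the 10 members with a negative value the gene rose in Mr, with changes of 0.90 (HF30053) to 4.65 (HF15427). In SF the changes of these 8 lay between -0.71 and 0.65. No gene of any kind was called by limma for this step in SF, so the lack of a call does not set these members apart. The study does report differentially expressed genes for the same step in SF by DESeq2. HF15427, HF08300 and HF39612 were among the members named for a large change in Mr. HF34374 and HF01893 fell in Mr, by 0.51 and 1.10, and the changes in SF were -1.83 and -2.30 (adjusted p = 0.0735 by limma for both). HF08300 and HF39612 fell in Mr by 3.002 and 2.704, and had changes of 0.45 and 0.69 in SF. The causes were not tested. Groups of 3 libraries were too small for a search for outlying samples within groups.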

How the results depend on the processing

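No named fold change turned its sign under any alternative, and depth limits statements on members at 0 to 3 fragments. In counts of members called, leaving out 1 library gave 3 to 14 for SF against WF at EB, 3 to 11 at ES, 0 to 6 for ES against EB in SF, 0 to 1 in WF, 0 to 60 for LS against ES in SF, 0 to 18 in WF, 0 to 2 in Mr, and 11 to 24 for the difference of the change at opening between SF and Mr. Without a filter on low values the counts were 8 for SF against WF at EB, 0 for ES against EB and 0 for LS against ES in WF, 14 for LS against ES in SF and 13 for the difference between SF and Mr. Scaling by total fragments gave 11 for SF against WF at ES (3 higher, 8 lower). One fit of all 9 groups gave 27 (EB), 16 (ES) and 14 (LS) for SF against WF, 10, 18 and 44 for ES against EB in SF, WF and Mr, 48 and 1 for LS against ES in WF and Mr, and 4 for the difference between SF and Mr. With the replicate number as a block the counts were 5 and 0 for SF against WF at EB and LS, 38 for SF against Mr at ES, and 0 for ES against EB in WF and for LS against ES in SF and WF. The block ended the calls of HF28138 and HF28140 in SF against WF at LS (adjusted p = 0.0904 and 0.0859 by limma). In none of the 12 comparisons did every same-numbered pair of libraries deviate together at a correlation over 0.1 (range -0.64 to 0.55). Some pairs did, with 0.18 and 0.55 for SF against WF at ES. The labels do not say what the replicate numbers mark. Deviations from means of 3 libraries cannot decide whether these numbers pair the libraries. The cause was not tested for any of these shifts.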
